A study of Xenopus laevis with 13 samples.

Results

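The *X. laevis* genome is allotetraploid, so many of its genes exist as homeologues, pairs of copies that descend from the L and the S subgenome. The copies of such a pair usually lie in matching neighbourhoods of different chromosomes and encode similar proteins, but each has its own regulatory sequence, so that one may be transcribed more than the other or at another time. In the fertilised egg the transcripts are those the mother stored during oogenesis, whereas the gastrula also holds transcripts from its own genome.

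The pairs described here are homeologue candidates found by name. A pair is a gene name that stood alone and on exactly 2 gene models of the deposited table, and 5399 of 12638 such names qualified, with 10798 of 54110 gene models. A further 5851 names stood on 1 gene model and 1388 on more. RNA was sequenced from 5 single eggs at stage 1 of Nieuwkoop and Faber, collected 60 min after fertilisation, from 5 single gastrulae at stage 10.5, and in 3 technical libraries of stage 10.5. All were offspring of a single female by *in vitro* fertilisation, and ribosomal RNA was depleted from all RNA. Values are RPKM, which the files call FPKM, fragments per length of transcript and per mapped read. Because the mother was shared, the p-values cover the spread between siblings and not between females. Libraries of the same stage were prepared in parallel and the kits differed between eggs and embryos, so developmental stage and library preparation cannot be told apart.

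The libraries were shallow. Reads recovered from the steps of the FPKM values numbered 1505713 to 2922780 in eggs, 1366719 to 3817777 in embryos and 725960 to 1175464 in technical libraries. Pair members took 29.1% to 30.4% of the reads in eggs 1 to 4, 19.4% in egg 5 and 17.6% to 22.7% in embryos. Of 10 gastrula markers, 6 names were found, and all 9 of their gene models were higher in embryos, with summed levels of 0 to 0.557 FPKM in eggs and 747 to 952 in embryos. Of 3 tested egg markers, 1 was higher in eggs, with a summed level of 219 to 389 FPKM in eggs and 170 to 214 in embryos. Follicle cell markers were found on 10 gene models, of which 7 were at 0 in all 10 single-animal libraries, and their summed level was 60.5 to 113 FPKM in eggs and 12.1 to 19.6 in embryos. The part of follicle cells in the results below was not tested. In whole eggs and embryos, fewer cells of a type and less RNA per cell cannot be told apart.

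Most pairs had the neighbourhoods of homeologues. The copies lay on different scaffolds in 5064 pairs, and in 3882 of these (76.7%) at least 2 other gene names occurred within 500 kb of both copies. Another 451 pairs shared 1 neighbouring name and 731 shared none. The remaining 335 pairs lay on the same scaffold, where the gene models overlapped in 142 pairs and the median gap was 356 bases. In the RefSeq annotation of assembly Xenopus_laevis_v10.1, 3606 of the names (66.8%) were listed both as an L and as an S gene, against 1694 of the 5851 names on 1 gene model (29.0%). Another 713 pair names were listed only as an L gene, 398 only as an S gene, and 682 as neither. Of the names on 1 gene model, 2312 were listed only as L and 699 only as S. Both percentages include unmatched names. Scaffolds were assigned to L or S from names that RefSeq lists for only one subgenome. Among the 588 pairs with at least 2 shared neighbours and both scaffolds assigned, the copies fell on opposite subgenomes in 577 (98.1%). Of 330 other assigned pairs 76 did so. These 330 were not cleared of pairs on the same scaffold, whose copies cannot fall on opposite subgenomes, so the 2 shares are not a like comparison.

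The members had a median length of 2293 bases, against 2023 for names on 1 gene model, 874 for unnamed gene models and 1404 over all gene models. The copies of a pair often differed in length. The median length ratio was 1.404, and 2989 pairs lay within 1.5 times. The gene model file named both copies alike in 4637 pairs, and in the others at least one copy carried another name there or none. Short copies without shared neighbours have little beside the name to mark them as homeologues. Lengths or neighbours are therefore given with many of the named pairs, but not with all of them.

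Both copies reached a mean of 1 FPKM over the 10 single-animal libraries in 2528 pairs, 1 copy did in 1096 and neither did in 1775, of which 338 were at 0 throughout. The 2528 pairs were tested further.

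The copies of a tested pair were usually unequal. The higher copy held a median of 67.7% of the summed FPKM in eggs and 67.3% in embryos. In 29.7% of the 2506 tested pairs with transcript in eggs and 30.2% of 2527 in embryos the higher copy held under 60%, and in 5.83% and 3.84% it held over 95%. Tested pairs need both copies at a mean of 1 FPKM, which tends to remove one-sided pairs. That mean runs over both stages, and 63 tested pairs did not reach a summed mean of 1 FPKM at each of them. Their share at the low stage can rest on few reads. All pairs with a summed mean of at least 1 FPKM at a stage numbered 3506 in eggs and 3709 in embryos. In 826 and 779 of them the higher copy held over 95%, and its median share was 75.2% and 74.8%. Among tested pairs, limma called the log2 copy ratio different from 0 in 1579 pairs in eggs (62.5%) and in 1635 in embryos (64.7%). Of the 1173 pairs called at both stages, the same copy was higher in 1075. The share of a copy differed between single libraries of a stage by a median SD of 9.605 points in eggs and 5.62 points in embryos. Eggs and embryos were tested in the same fit, with a residual variance shared by both stages. Leaving out egg 3 thus moved the embryo count to 1737. With unlike spreads, such calls can be too lenient in eggs and too strict in embryos. The counts of unequal pairs therefore cannot be compared between stages. The shares of unequal and balanced pairs alike depend on how reads that fit both copies equally were assigned. That is not given in the sources used here, and its part was not tested.

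**Figure D1:**
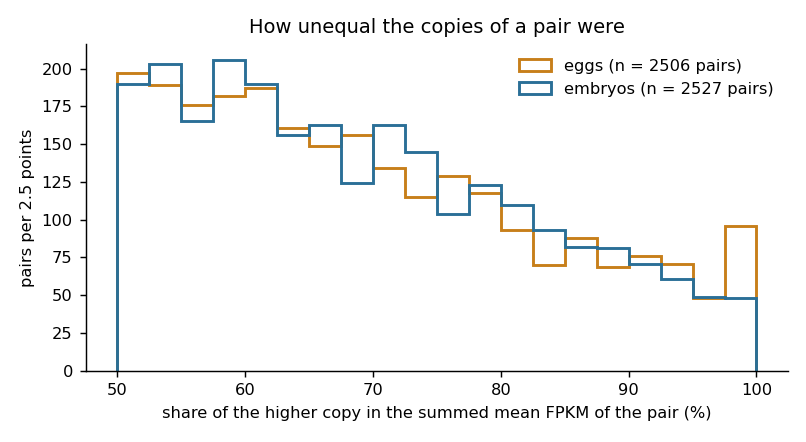
Number of tested pairs (y axis) by the share of the higher copy in the summed mean FPKM of the pair (x axis, percent), for eggs and embryos. The outlines largely coincide, with medians of 67.7% and 67.3%, except for more pairs in eggs than in embryos in the last bin. The pairs include 63 without a summed mean of 1 FPKM at both stages, whose share can rest on few reads.

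The difference in length moved with the difference in level. Where the lengths lay within 1.1 times, the longer copy was the higher one in 47.0% of pairs in eggs and 49.4% in embryos. Where they differed by over 3 times, it was the higher one in 31.8% and 35.3%, and the median share of the higher copy was 78.8% in eggs and 77.6% in embryos, against 64.9% and 65.3%. The part of length in the imbalance was not tested. The share of pairs called for a stage difference was 34.5% within 1.1 times and 36.8% over 3 times.

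Some pairs were balanced in every single-animal library. In 21 pairs each copy held between 40% and 60% in all 10 libraries. The highest of these was rpl15, a protein of the large ribosomal subunit. Its copies stood at 660 ± 144 and 732 ± 138 FPKM in eggs and at 540 ± 126 and 542 ± 80.02 in embryos (SD, n = 5), and their ratio did not pass the test at either stage. The copies of atp5a1, the alpha subunit of the mitochondrial ATP synthase, stood at 434 ± 34.2 and 416 ± 77.7 FPKM in eggs and at 402 ± 143 and 404 ± 130 in embryos. The spread between embryos was shared, since embryo 5 was lowest for both copies, at 210 and 224 FPKM, and embryo 3 was highest, at 587 and 567. The copies of foxi2, a forkhead factor that is maternal in *Xenopus*, held 54.4% and 45.6% in eggs and 57.8% and 42.2% in embryos. They were called unequal at both stages (limma, variance shared between stages, adjusted p = 0.0205 and 0.000576). For rps14, of the small ribosomal subunit, the shares were 53.7% and 46.3% in eggs and 46.8% and 53.2% in embryos. The fifth pair was smox, spermine oxidase, with 1 shared neighbour, in which copy 1 held 52.2% in eggs and 41.9% in embryos. This small shift was called (limma, adjusted p = 0.00175), and the higher copy changed between all eggs and all embryos. In the technical libraries, which were not used to choose these pairs, copy 1 held 62.3% to 64.1% in foxi2 and 33.3% to 45.8% in rps14. In rpl15, atp5a1 and smox it stayed between 40% and 60% there. For smox the technical libraries had 45.6% to 48.9%, above the 40.2% to 44.6% of the single embryos and below the 51.5% to 53.2% of the eggs.

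In 122 pairs 1 copy held over 95% in all 10 libraries while the other was not at 0 throughout, and in 8 of these both copies were high enough to be tested. In ptgfrn, with 5 shared neighbours, lengths of 2427 and 2548 bases and a copy 1 that is unnamed in the gene model file, copy 2 stood at 162 to 182 FPKM in the 5 eggs and 160 to 314 in the embryos. Its other copy did not exceed 1.07 FPKM in eggs or 2.37 in embryos. For med18, a Mediator subunit with 10 shared neighbours, the 988-base copy stood at 602 to 949 FPKM in eggs and 141 to 194 in embryos, and the 4702-base copy at 4.05 to 6.59 and 1.29 to 3.81. Both copies of med18 were higher in eggs, the first by 2.13 and the second by 0.98 on the log2 scale. For eef1d, an elongation factor subunit, the 789-base copy held 98.3% in eggs and 98.5% in embryos. The remaining ones named by the rule, nup155 and mphosph10, had a high copy of only 277 and 139 bases and no shared neighbour.

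The copy ratio was then compared between stages, within each library. The ratio differed between eggs and embryos in 849 of 2528 pairs (33.6%) at an adjusted p under 0.05, with a median absolute difference of 1.41 on the log2 scale and a range of 0.43 to 10.93. The difference exceeded 1 in 648 pairs and 2 in 211. The ratios of eggs and embryos did not overlap in 637 pairs (25.2%), of which 614 were among the 849. Among tested pairs with at least 2 shared neighbours 32.8% were called, among those on the same scaffold 31.3%, and among other pairs 37.7%. The 3 technical libraries of stage 10.5, which entered no test, had a mean ratio nearer to that of the embryos than to that of the eggs in 747 of the 849 pairs (88.0%). The pairs were chosen for a difference between the stages, and these libraries are of the stage of the embryos. The count is thus a description, and it cannot tell stage from library preparation.

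Each copy was also tested on its own, in a fit over the 19373 gene models that averaged 1 FPKM or more. Of the 6152 members tested, 26.6% were higher in eggs and 30.1% in embryos, against 25.2% and 31.6% of all gene models and 28.1% and 29.7% of names on 1 gene model. In 519 of the 849 pairs only 1 copy passed the test, and it was lower in embryos in 260 and higher in 259. Both copies passed in the same direction in 204 pairs, with 117 higher and 87 lower in embryos, and in opposite directions in 92. In those 92 pairs the summed FPKM of the pair differed between stages by a median of 0.52 on the log2 scale, and by at most 1 in 73. Choosing pairs with opposite directions by itself tends to keep the sum close. The sum was not compared with other pairs, so these values are a description. In 34 pairs neither copy passed alone.

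**Figure D2:**
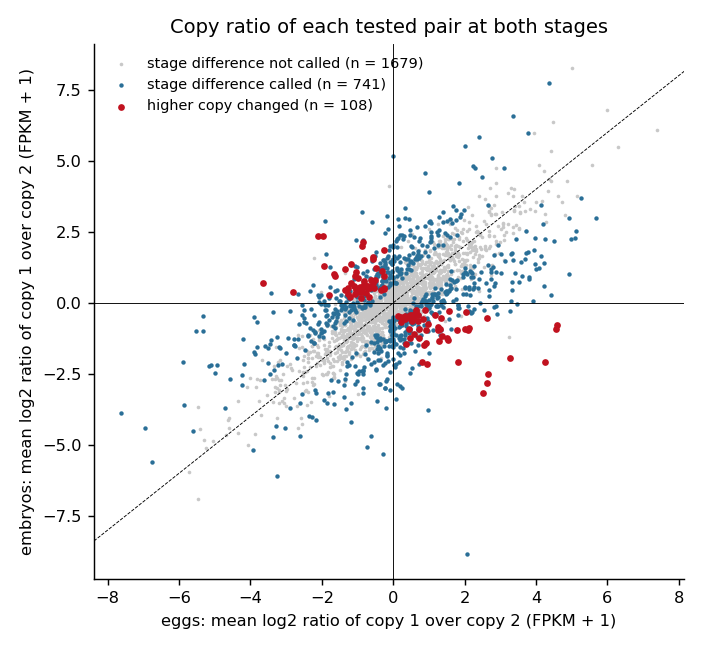
Mean log2 ratio of copy 1 over copy 2 (FPKM + 1) of each tested pair, eggs on the x axis and embryos on the y axis, with the line of equality dashed. The 849 called pairs spread to both sides of the line, and the 108 in which the higher copy changed lie in the upper left and lower right of the plot.

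In 108 pairs (4.27%) the higher copy changed, with one copy higher in all 5 eggs and the other in all 5 embryos. Of these, 82 had at least 2 shared neighbours and 2 lay on the same scaffold. In 63 only 1 copy passed the test on its own, in 24 both did in the same direction, in 20 they did in opposite directions and in 1 neither did. In 69 of the 108, all 3 technical libraries had the same higher copy as the embryos.

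Among these changes was nodal1, a signal of the TGF-beta family that induces mesoderm and endoderm. Its copies were 1221 and 1218 bases long and shared 5 neighbouring names. Copy 1 (scaffold 59267, bases 2177698 to 2180399) stood at 11.3, 10.5, 0.438, 1.34 and 12.2 FPKM in eggs 1 to 5 and at 1.13, 1.38, 0.732, 0.920 and 1.90 in the embryos. Copy 2 (scaffold 171831, bases 210562 to 212796, on the L subgenome) was at 0 in all eggs and at 20.9, 20.8, 13.2, 14.8 and 25.4 FPKM in the embryos. Copy 1 was thus the higher one in every egg, though low in eggs 3 and 4, and copy 2 in every embryo without overlap. The log2 ratio differed by 5.69 ± 0.61 (SE, adjusted p = 5.39e-05). Copy 2 was higher in embryos on its own (adjusted p = 2.46e-08), and copy 1 did not pass (adjusted p = 0.0672). Wherever a copy was at 0, the size of the log2 difference depends on the pseudocount of 1.

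For cyp26a1, the enzyme that degrades retinoic acid, the copies shared 8 neighbouring names. Copy 1 (scaffold 7555, bases 3439901 to 3446699, L subgenome, 3697 bases) stood at 26.2 to 50.8 FPKM in eggs and 16.9 to 27.7 in embryos. Copy 2 (scaffold 16863, bases 3786011 to 3790595, 1797 bases) stood at 0.249, 0, 5.88, 0 and 0 FPKM in eggs and 36.3 to 56.9 in embryos. Its share therefore went from 2.23% in eggs to 66.0% in embryos (adjusted p = 3.69e-06). Each copy passed the test alone, in opposite directions. The foxi2 pair lay on the same scaffolds as cyp26a1, and its ratio did not differ between stages at the threshold (adjusted p = 0.211).

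The pair of sec11c, a catalytic subunit of the signal peptidase, had copies of 753 and 755 bases and 5 shared neighbours. Copy 1 stood at 3.05 to 15.4 FPKM in eggs and 0 to 4.83 in embryos. Copy 2 was at 0 in 4 eggs, at 1.44 FPKM in egg 1 and at 5.403 to 22.9 in embryos. The groups of copy 2 did not overlap, while those of copy 1 did, and the ratio differed by 5.15 ± 0.69 (SE, adjusted p = 0.000251).

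For ckap4, a membrane protein of the endoplasmic reticulum, only copy 1 passed the test on its own. It (scaffold 54336, S subgenome, 1819 bases) stood at 0.245, 0, 0, 0 and 0.577 FPKM in eggs and 14.4 to 26.4 in embryos. Copy 2 (scaffold 137507, L subgenome, 1845 bases) stood at 7.88 to 22.8 FPKM in eggs and 8.58 to 15.1 in embryos, and these overlapped. The pair of ip6k1, an inositol hexakisphosphate kinase, kept its higher copy, and both copies passed the test alone, in opposite directions. Copy 1 was at 0 in 4 eggs, at 1.87 FPKM in egg 2 and at 17.0 to 24.6 in embryos, beside 47.8 to 63.9 and 26.6 to 49.5 for copy 2. Its share was 0.591% in eggs and 33.2% in embryos (adjusted p = 1.87e-06).

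The copies of rbp2, a cellular retinol-binding protein, had 8 shared neighbours but lengths of 381 and 1463 bases. Copy 2 fell from 44.4 to 81.8 FPKM in eggs to 8.17 to 22.5 in embryos, while copy 1 was at 0 in 4 eggs, at 10.03 FPKM in egg 3 and at 5.26 to 25.1 in embryos. For faim, an inhibitor of apoptosis with 4 shared neighbours, copy 1 stood at 4.97 to 24.9 FPKM in eggs and 0 to 1.49 in embryos. Copy 2, which has no name in the gene model file, was at 0 in all eggs and at 4.12 to 7.54 FPKM in embryos. For tpst1, a protein-tyrosine sulfotransferase with 1 shared neighbour, copy 1 was at 0 to 3.75 FPKM in eggs and 4.05 to 8.06 in embryos, and copy 2 at 2.74 to 15.6 and 0 to 1.65.

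In the pair of ptgs2, a cyclooxygenase that makes prostaglandins, both copies were at 0 in all 5 eggs. In embryos copy 1 reached 195 to 247 FPKM and copy 2 only 3.83 to 6.69, although the copies were 3697 and 2930 bases long and shared 6 neighbouring names. Copy 1 held 97.7% in embryos. Its stage difference in ratio of 5.18 restates the imbalance in embryos, since the pair had no transcript in eggs.

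The 12 largest differences named by the rule required no overlap between stages and each copy at 5 FPKM or more at a stage. Of these 12, 4 rest on copies that share no neighbouring name. In mars2, ipo7 and ethe1 the copy that was higher in embryos was 526, 761 and 207 bases long. In polr1e it was 923 bases long, and both scaffolds of the pair were assigned to the L subgenome. The copy higher in embryos was unnamed in the gene model file in ipo7 and polr1e. The largest difference of any called pair, 10.93, belonged to rrm2b, a ribonucleotide reductase subunit. There the 270-base copy stood at 0 in all eggs and 515 to 981 FPKM in embryos. The 1532-base copy stood at 0 to 8.06 and 0 to 1.59. The 270-base copy overlaps another gene model. Such an overlap of at least 1 copy was common, in 1335 of the 2528 tested pairs and 2911 of all 5399. The tested ones include nodal1, sec11c, ckap4, faim and tpst1.

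**Figure D3:**
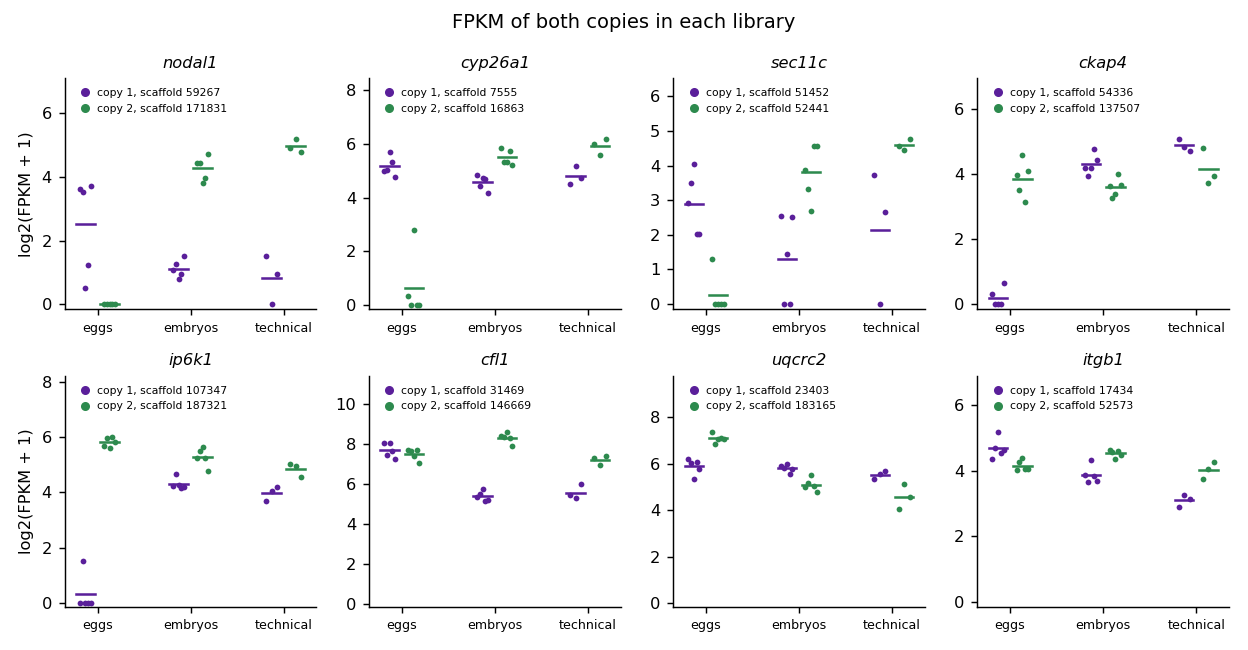
FPKM of both copies in every library for 8 pairs on a log2(FPKM + 1) axis, for eggs, embryos and technical libraries, with points for libraries and bars for means. In nodal1, cyp26a1, sec11c, ckap4, uqcrc2 and itgb1 the copy that is higher in all eggs is the lower one in all embryos, while in ip6k1 the same copy is higher throughout and in cfl1 no copy is higher in all eggs.

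Among pairs of developmental signals and transcription factors, most members had more transcript in embryos. Of 36 tested members of the list of secreted signals and their antagonists 28 were higher in embryos and 2 in eggs, and of 39 of the list of mesoderm, endoderm and organizer transcription factors 31 and 3, beside 30.1% and 26.6% of all pair members. Many of them passed the minimum of 1 FPKM through the embryos alone, so the counts are a description. For the same reason the copy ratio could be followed in few of these pairs, since the egg ratio of a pair without transcript in eggs is set to about 0 by the pseudocount. A summed mean of at least 1 FPKM at both stages was reached by 9 of 17 tested signal pairs, of which 6 were called for the ratio (66.7%), and by 3 of 16 factor pairs, of which 1 was. Over all tested pairs, 820 of the 2465 that reached it were called (33.3%). This restriction was chosen after seeing the data.

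Among the signals, cer1, the secreted antagonist of Nodal, BMP and Wnt, stood at 0 in 4 eggs for both copies. In embryos copy 1 reached 6.10 to 17.9 FPKM and copy 2 45.4 to 83.1, without overlap, and copy 2 held 83.2% there. The copies of efna1, an ephrin ligand, differed at the egg stage. Copy 2 was present in eggs at 7.13 to 20.1 FPKM while copy 1 did not exceed 0.579, and in embryos they overlapped at 28.7 to 54.8 for copy 1 and 20.2 to 50.3 for copy 2. For wnt11b, a maternal Wnt ligand, the second gene model had 335 bases, no shared neighbour, and levels of 0, 0, 0, 42.6 and 7.71 FPKM in eggs.

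Among the transcription factors, hes1, a repressor downstream of Notch, had copies of 1081 and 1083 bases. Copy 1 stood at 8.79 to 21.7 FPKM in embryos and copy 2 at 1.097 to 4.26, and neither exceeded 0.388 in eggs. Both copies of the caudal homeobox gene cdx4 were at 0 in all eggs, and in embryos copy 1 reached 54.3 to 125 FPKM and copy 2 9.70 to 30.0. In dlx3, a homeobox gene of the non-neural ectoderm, copy 1 reached 13.01 to 34.9 FPKM and copy 2 1.28 to 4.63. In hes1, cdx4 and dlx3 the higher copy was the same in all 5 embryos. The zinc-finger gene zic2 was unlike them, with both copies present in eggs. Copy 1 held 58.4% in eggs and 37.6% in embryos (adjusted p = 0.00125), as copy 1 alone fell.

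Of 64 tested members of the list for oxidative phosphorylation 36 were higher in eggs and 4 in embryos, beside 26.6% and 30.1% of all pair members. Both copies were higher in eggs in 12 pairs and in embryos in 1, beside 395 and 455 of all 2528 tested pairs. Of 31 tested pairs 11 were called for the ratio (35.5%), beside 33.6% of all tested pairs. In uqcrc2, a core subunit of complex III with 5 shared neighbours, copy 1 stood at 40.0 to 73.1 FPKM in eggs and 45.4 to 62.4 in embryos. Copy 2 stood at 114 to 161 FPKM in eggs and 26.3 to 44.5 in embryos, so that the higher copy changed while copy 2 alone passed the test. In ndufs6, of complex I, the 451-base copy likewise stood at 29.8 to 95.7 FPKM in eggs and 0 to 12.2 in embryos, beside 8.003 to 20.8 and 7.19 to 15.9 for the 514-base copy. Both copies of ndufs4, also of complex I, were higher in eggs. Its copy 1 stood at 94.3 to 152 FPKM in eggs and 6.99 to 14.7 in embryos, and copy 2 at 8.60 to 26.3 and 5.34 to 10.3.

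Cytosolic ribosomal proteins had 13 of 30 tested pairs called (43.3%) and mitochondrial ribosomal proteins 5 of 12 (41.7%), beside 33.6% of all tested pairs. Of 61 tested cytosolic members 32 were higher in eggs and 14 in embryos, and of 31 mitochondrial members 16 and 5, beside 26.6% and 30.1% of all pair members. In mrps31, of the mitochondrial small subunit with 9 shared neighbours, copy 1 stayed at 21.5 to 40.8 FPKM in eggs and 28.3 to 42.2 in embryos. Its copy 2 stood at 1.87 to 11.1 FPKM in eggs and 15.8 to 38.6 in embryos. In rps29, rps19 and rpl38, which had large called differences among cytosolic ribosomal pairs, the copies shared no neighbouring name. The proteasome had 4 of 12 tested pairs called (33.3%). In psmb7, a catalytic subunit, copy 2 stood at 78.0 to 165 FPKM in eggs and 12.7 to 22.4 in embryos, whereas copy 1 stood at 14.6 to 29.6 and 12.1 to 25.4.

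Splicing factors had 12 of 21 tested pairs called (57.1%), beside 33.6% of all tested pairs. In u2af2, which binds the 3′ splice site, copy 1 was higher in embryos, at 57.3 to 80.2 FPKM against 23.3 to 41.3 in eggs. Copy 2 stood at 48.8 to 91.4 FPKM in eggs and 39.7 to 64.6 in embryos, so that the higher copy changed. In srsf1, the copy without a name in the gene model file did not exceed 2.39 FPKM in eggs and stood at 23.9 to 30.3 in embryos, and it has 1 exon.

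Of 30 tested pairs for the cell cycle and DNA replication 12 were called (40.0%), of 16 for the germ line and mRNA storage 6 (37.5%), and of 11 for chromatin 3 (27.3%). The share over all tested pairs was 33.6%. In cdt1, which licenses replication origins, copy 2 stood at 13.1 to 20.1 FPKM in eggs and 102 to 144 in embryos, and copy 1 at 101 to 139 and 172 to 196. In ddx6, an RNA helicase of stored mRNA, copy 1 held 43.6% in eggs and 71.2% in embryos. In kat2a, a histone acetyltransferase with 13 shared neighbours, copy 1 stood at 1.67 to 5.74 FPKM in eggs and 3.36 to 6.42 in embryos, and copy 2 at 3.41 to 6.78 and 1.81 to 3.21. Both copies of ctcf, the insulator protein, were higher in embryos, at 99.1 to 203 FPKM for copy 1 and 34.5 to 72.9 for copy 2, against 11.2 to 17.1 and 7.40 to 12.1 in eggs.

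Of 7 tested pairs for the cytoskeleton and adhesion 3 were called (42.9%), and of 2 for glycolysis 1, beside 33.6% of all tested pairs. In cfl1, the actin-severing protein cofilin, the copies of 593 and 815 bases were even in eggs, at 155 to 269 and 132 to 207 FPKM. In embryos copy 1 stood at 34.8 to 53.5 FPKM and copy 2 at 241 to 389, and each passed the test in its own direction (ratio, adjusted p = 7.89e-07). In itgb1, integrin beta 1, copy 1 was the higher one in all eggs, at 19.7 to 35.4 against 15.2 to 19.99 FPKM. In all embryos copy 2 was, at 19.7 to 23.8 against 11.7 to 19.2. In pgk1, phosphoglycerate kinase, copy 2 held 91.8% in eggs and 85.1% in embryos.

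A copy was then called silent at a stage when it was listed at 0 in all 5 libraries while its partner had a mean of at least 1 FPKM there. This held in 514 of 3443 pairs in eggs (14.9%) and 364 of 3625 in embryos (10.04%). The same copy was silent at both stages in 226 pairs, in eggs only in 288 and in embryos only in 138. No pair had different copies silent at the 2 stages. Here only means that the rule was met at that stage alone. Such a copy may be at 0 at the other stage too, where its partner averaged under 1 FPKM. For comparison, 29.6% of pair members, 24.1% of names on 1 gene model and 53.8% of all gene models were at 0 in all eggs. In all embryos the shares were 17.3%, 15.1% and 42.6%. Unlike the counts of silent copies, these shares ask for no partner with transcript. A zero allows up to 3 reads over the 5 libraries, equal to a median of 0.279 FPKM for silent copies in eggs and 0.452 in embryos, which covers counting error only. The mean of the partner was at least 2 times this limit of the silent copy in 438 of the 514 pairs in eggs and 280 of the 364 in embryos. It was at least 10 times the limit in 334 and 186. Where the partner lay near the limit, a zero does not show that the copies differed. Reads that fit both copies equally may also leave a copy at 0, and how they were assigned is not given in the sources used here.

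Copies silent at both stages were mostly short. Their median length was 373 bases with 2 exons, against 1792.5 bases and 9 exons for their partners, and in 59 of these pairs the shorter copy was shorter than the 42-base reads. The rule named btg1, eno1, ccnb2, eif4a1 and loc100497404, whose silent copies had 29, 27, 44, 793 and 35 bases. Copies silent in eggs only had a median of 1553.5 bases and those silent in embryos only 1357. Lengths within 1.5 times, at least 2 shared neighbours and both names in the gene model file were found in 2242 pairs. Of these, 114 had a silent copy in eggs and 66 in embryos, with 21 silent at both stages. The 2242 pairs were not limited to those with transcript at the stage, unlike the 3443 and 3625 above.

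**Figure D4:**
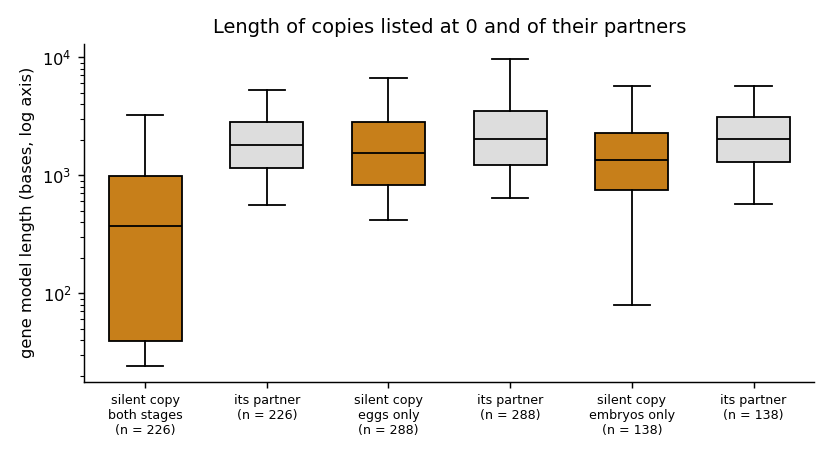
Length of the silent gene models and of their partners, in bases on a log axis, for copies silent at both stages (n = 226), in eggs only (n = 288) and in embryos only (n = 138). Boxes span the quartiles with the median, and whiskers run from the 5th to the 95th percentile. The median of copies silent at both stages is 373 bases, against 1792.5 for their partners.

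From these comparable pairs, further examples were chosen after their values were seen. The pair of pld3, a phospholipase D family member, had copies of 2435 and 1960 bases with 12 exons each and 6 shared neighbours. Copy 1 stood at 43.5 to 78.6 FPKM in eggs and 60.4 to 110 in embryos, and copy 2 was at 0 in all 13 libraries. In c1qbp, a mitochondrial protein, copy 2 stood at 52.1 to 108 FPKM in eggs and 82.1 to 116 in embryos and copy 1 was at 0. In psmg3, a chaperone of proteasome assembly, copy 1 fell from 104 to 248 FPKM in eggs to 23.6 to 62.0 in embryos, and copy 2 was at 0.

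Of the 288 copies silent in eggs only, 225 were above 0 in embryos and 51 reached a mean of 1 FPKM. In lhx5, a LIM homeobox gene with copies of 1392 and 1206 bases and 5 shared neighbours, copy 1 was at 0 in all eggs and at 12.4 to 28.7 FPKM in embryos. Copy 2 stood at 3.56 to 7.56 FPKM in eggs and 6.32 to 27.0 in embryos. In cops5, a subunit of the COP9 signalosome, copy 2 was at 0 in eggs and at 2.97 to 8.19 FPKM in embryos, while copy 1 stood at 21.8 to 43.5 and 70.2 to 99.2. The rule named mars2, ipo7, rrm2b, rtn4 and mknk2, whose silent copies had 82 to 761 bases.

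Of the 138 copies silent in embryos only, 64 were above 0 in eggs and 19 reached a mean of 1 FPKM. The others were at 0 in all eggs too. In tmem181, with copies of 1666 and 1731 bases and 7 shared neighbours, the silent copy stood at 0.542, 4.25, 22.9, 0.233 and 5.101 FPKM in eggs. In tmem37 the silent copy was at 13.1 FPKM in egg 3 and at 0 in the other eggs. In ndufa12, of complex I, it stood at 16.0, 20.2, 0, 6.12 and 0 FPKM. In none of the 5 pairs named by the rule, which also include fbxo32 and rpl21, did the ratio differ between stages at the threshold (adjusted p of 0.0719 to 0.983). The technical libraries also had 332 of the 364 copies silent in embryos at 0. They had 373 of the 514 copies silent in eggs at 0 as well. With 725960 to 1175464 recovered reads they were the shallowest libraries, so the counts are a description.

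Finally the imbalance was summarised per library. The median absolute log2 copy ratio over the 2528 pairs was 1.00 ± 0.10 in eggs and 0.925 ± 0.023 in embryos (SD, n = 5). The difference of 0.077 did not pass an exact permutation test (two-sided p = 0.103, where the smallest possible p is 0.00794). Without egg 5 it was 0.101 and passed (exact permutation test, p = 0.0476), and without egg 3 it was 0.036 (exact permutation test, p = 0.206). Egg 3 had the highest value, 1.17, and the fewest recovered reads among the eggs. The part of depth was not tested.

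Among tested pairs the L and S copies were close to each other on the median. Copies were assigned to opposite subgenomes in 653 pairs, and 293 of these had both copies high enough to be tested. In these 293 the median log2 ratio of L over S was 0.043 ± 0.076 in eggs and 0.007 ± 0.057 in embryos (SD, n = 5). The difference between stages did not pass (exact permutation test, two-sided p = 0.452), and L against S was not tested on the median. The difference between stages became 0.155 among pairs with both copies at 5 FPKM or more (exact permutation test, p = 0.0238), and turned to -0.025 over 1568 pairs when the subgenome of an unassigned scaffold was inferred from its partner (exact permutation test, p = 0.262). Over those 1568 pairs the ratio itself was 0.048 ± 0.037 in eggs and 0.073 ± 0.022 in embryos (SD, n = 5), with L above S at both stages. Among the 293 pairs, the L copy was called higher in eggs in 92 and the S copy in 85, and in embryos in 95 and 91. Of the 85 such pairs called for the stage difference, the L copy gained in eggs in 43 and in embryos in 42. The lengths of the L and S copies had medians of 2505 and 2517 bases. Pairs with a silent copy were mostly left out by the filter. Where their copies lay on opposite subgenomes, the silent one was the S copy in 24 pairs and the L copy in 15 in eggs. In embryos these numbers were 17 and 13.

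**Figure D5:**
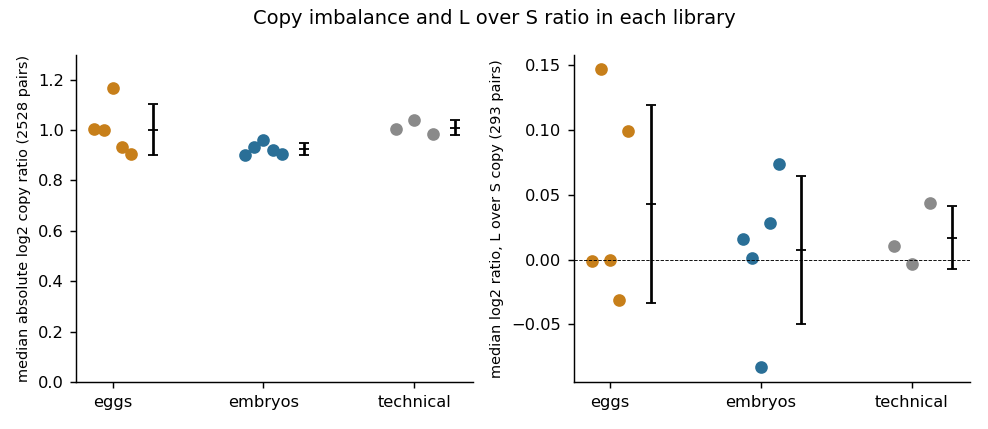
Median absolute log2 copy ratio of the 2528 tested pairs (left) and median log2 ratio of L over S copies of 293 pairs (right) in each library, with the mean and SD of each group beside the points. Eggs span 0.907 to 1.17 and embryos 0.902 to 0.959 on the left, and both groups straddle 0 on the right.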

How the data were processed

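FPKM values were used as deposited. The authors mapped 42-base single-end reads with gmap to JGI scaffolds (JGIv7b in the gene model IDs) and computed FPKM with Cufflinks 2.1.1 for pita gene models, one transcript per locus. How reads that fit several places were treated is not given in the sources used here. Reads recovered from the FPKM steps (88.5% to 91.8% of low values were whole to within 0.1 reads, assuming fragments of 200 ± 80 bases) set only depth and the limits at 0.

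Copies were numbered by gene model ID. For pairs with both copies at a mean of at least 1 FPKM, log2(copy 1 + 1) − log2(copy 2 + 1) in each library was compared between 5 eggs and 5 embryos with limma 3.58.1 in R 4.3.3 (trend, empirical Bayes, Benjamini-Hochberg over all pairs tested, adjusted p under 0.05). Changes on the FPKM + 1 scale understate low genes. Single gene models were tested likewise. The copy ratio at each stage was tested against 0 in the fit of the copy ratios, with a variance shared by eggs and embryos. Replicate numbers did not pair the libraries. Scaffolds were assigned to a subgenome from at least 3 single-model names with 80% or more on one side.

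The members and lists were chosen with earlier results of these data known. Named pairs, all on different scaffolds, were the 12 largest called differences without overlap and with each copy at 5 FPKM or more at a stage, the 8 largest changes of the higher copy, 5 silent pairs of each kind, the 5 highest balanced and one-sided pairs, and up to 4 called pairs a list. Follicle cell markers formed 1 pair, which was not tested. Alternatives changed the filter, pseudocount, scaling, pair set, replicate block, libraries and stage profile.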

Additional observations from a re-analysis of the deposited data

Results flagged for a closer look

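In each group of 5 libraries the highest or lowest value was compared with the range of the group (Dixon's ratio above 0.71) for 3 summary values and the named pairs other than silent and list pairs, and 7 of 52 groups stood out. Chance alone flags about 1 in 20 groups.

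The share of reads on pair members was 19.4% in egg 5, against 29.1% to 30.4% in the other eggs. Without egg 5, 801 pairs were called for the stage difference. In the log2 copy ratio, egg 3 was apart in cyp26a1 at 2.91 (others 4.68 to 5.34), in foxi2 at 0.42 (others 0.19 to 0.22) and in rbp2 at -2.81 (others -6.37 to -5.51). Egg 2 was apart in ethe1 at -0.72 (others 1.08 to 1.73) and in ip6k1 at -4.44 (others -6.02 to -5.61). Embryo 4 was apart in ptgfrn at -7.49 (others -6.56 to -6.18). In cyp26a1, rbp2 and ip6k1 the library that stood apart was the one, or the highest one, in which the copy otherwise near 0 in eggs had reads.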

How the results depend on the processing

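Of the 849 pairs called for the stage difference, 591 (69.6%) were called in all 14 fits that kept the same pairs. Counts left the range of 1.5 times mainly where the pair set changed. With both copies at 5 FPKM or more, 548 pairs were called for the stage difference, 871 were unequal in eggs and 902 in embryos. On different scaffolds with lengths within 1.5 times the counts were 540, 938 and 989, with 71 changes of the higher copy. Without a filter 2536 pairs were unequal in embryos. The median share of the higher copy became 64.5% in eggs and 64.5% in embryos at 5 FPKM, 76.2% and 73.4% without a filter, 64.9% and 65.2% with similar lengths, and 66.6% in embryos with 2 shared neighbours. Silent copies numbered 279 in eggs and 213 in embryos with a partner at 5 FPKM or more, and 158 and 95 with similar lengths. In alternatives added after seeing the data they numbered 260 and 153 with 2 shared neighbours, 125 and 71 with both, 296 and 189 with one name in both files, and 214 in embryos at 500 bases or more.

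Leaving out one library gave 681 to 934 stage differences, 110 to 133 changes of the higher copy, 1500 to 1595 unequal pairs in eggs and 1458 to 1737 in embryos, and 526 to 584 silent copies in eggs and 376 to 413 in embryos, where fewer libraries must be at 0. Median shares were then 67.6% to 68.1% in eggs and 67.4% to 67.6% in embryos. Gene models higher in eggs numbered 4450 to 5084 (members 1500 to 1705) and in embryos 5605 to 6183 (members 1695 to 1884). The imbalance difference was 0.036 to 0.101 and passed without egg 5 (0.101, exact permutation p = 0.0476). The L over S difference was 0.009 to 0.054. It was 0.155 at 5 FPKM, and became -0.025 (exact permutation p = 0.262) when a missing side was inferred from shared neighbours, an alternative added after seeing the data. The causes were not tested. With the replicate block 733 pairs were called; same-numbered libraries correlated at -0.086 to 0.094 in copy ratio, and only numbers 3 and 5 matched best with their own. Of 60 named called pairs, 55 kept direction and call in the 19 alternatives run on them; grip2, hdac2, msn, psmb5 and rps19 lost the call in some.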
